A study of Mus musculus with 2 samples.

Results

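Pdgfra encodes the alpha receptor for platelet-derived growth factor (PDGF), a tyrosine kinase at the surface of mesenchymal cells. It was followed as 1 gene of the 5238 named in any table of the series, through its 20 entries among 21796, 10 from the control library, 5 from the FGF2 library and 5 from the table that integrates both. Every entry whose gene name is Pdgfra was taken, whatever its value. Each entry sets 1 cluster of cells against the rest of its table.

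The study profiled single stromal cells of salivary gland organoids, aggregates grown in culture from mouse glands. Both groups came from the outbred CD-1 stock at embryonic day 16, with 7 added to that day in the age label, a number whose unit is not given in the sources used here. Controls were 1 library from 5023 captured cells and the FGF2 group 1 library from 10107 captured cells of organoids with fibroblast growth factor 2, at a dose and time not given in the sources used here. No label says whether cultures or animals were pooled.

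The alpha receptor binds the ligands PDGF-A, PDGF-B and PDGF-C, pairs with itself or with the beta receptor Pdgfrb, and signals through phosphatidylinositol 3-kinase, phospholipase C gamma and the Ras pathway. In developing glands the receptor is a classical marker of the mesenchyme, while PDGF-A is typically made by the neighbouring epithelium. In adult tissues it marks fibroblasts and is low in mature smooth muscle. The gene (ENSMUSG00000029231.15) lies on the plus strand at chr5:75152292-75198215 of GRCm38, the assembly also called mm10, in the GENCODE M21 annotation, which gives it 9 transcripts. The reads tag 3' ends and were counted per gene, so no transcript form was told apart.

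All values are shares or ratios. A share is the percentage of cells with a Pdgfra value above 0. A level ratio is the cluster's average plus 1 over the average plus 1 of the other cells, so it understates differences of low genes. The relative level places all clusters of a library on 1 scale, as the cluster's average plus 1 over the library's average plus 1. With 1 library per group there was no replicate check and nothing was tested. Depth per cell and cell numbers per cluster were unknown, so the order of neighbouring clusters below carries no error, and a share is a matter of depth as well as of expression.

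The 13 mesenchymal marker genes checked the stromal label. In each library 11 of them were measured, with a median share of 84.8% of control cells (range 31.6 to 95.8%) and 82.2% of FGF2 cells (range 32.0 to 95.4%). The epithelial markers had medians of 1.85% (9 of 11 measured) and 4.28% (8 of 11), and no erythroid or lymphocyte marker was listed in either library. Clusters with at least 3 markers of another cell type listed as higher, at least 1 of them among the 10 leading genes, were set apart as non-stromal. They left 94.2% of the control cells in 10 stromal clusters and 95.5% of the FGF2 cells in 13. Some clusters had a low median share over the genes listed for them. In control clusters 4 and 9 the median share of the listed genes was 10.9% and 7%, and in FGF2 clusters 10 and 13 it was 14.4% and 12%. These 4 took 13.4% of control and 4.92% of FGF2 cells, and the Pdgfra results that rest on them are given with and without them. Not every gene was low there, as Sparc was at 75.7% in control cluster 4 and 80.3% in FGF2 cluster 13 in the authors' deposited table. FGF2 cluster 16, with a median of 16.1%, was not counted among the 4. No cutoff was fixed for the 4, which were set by hand.

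Pdgfra was found in 78.3% of control and 84.2% of FGF2 cells. Each share was recovered from several clusters, and the 10 control entries gave 78.2 to 78.3% and the 5 FGF2 entries 84.2% each. If all captured cells entered the tables, exact 95% binomial (Clopper-Pearson) intervals would be 77.1 to 79.4% and 83.5 to 84.9%, which cover counting error only. The FGF2 share was 5.91 percentage points higher, or 1.08-fold. Among stromal clusters it was 82.6% in the control and 87.1% in the FGF2 library, 4.58 points higher.

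That direction turned when the 4 low-share clusters were left out. Among the remaining stromal clusters, Pdgfra was found in 91.7% of the control cells. The FGF2 value depends on cluster 10, for which Pdgfra was not listed. It was 88.3% with cluster 10 set to the mean of the unlisted clusters and 91.7% with cluster 10 set to 0, so the differences of FGF2 minus control were -3.45 and -0.034 points. Over all cell types the differences were -3.88 and -0.62 points. These are not like for like in cell type. They leave out the epithelial-like control cluster 9, with 2.83% of the cells and Pdgfra in 4.9%. The epithelial-like FGF2 cluster 11, with 2.88% and 15.8%, stays in. Of the 890 compared genes whose FGF2 share was larger, 121 turned in the same way, with unlisted clusters at the share of their library. Control cluster 4, with 10.6% of the control cells, was led by AY036118, Gm42418 and Gm26917. It had Pdgfra in 10.0% of its cells in the authors' deposited table. All 5 mesenchymal markers listed for it were lower. FGF2 cluster 10 was led by Gm42418, Xist and Malat1. The part of depth or cell quality in these clusters was not tested.

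**Figure D1:**
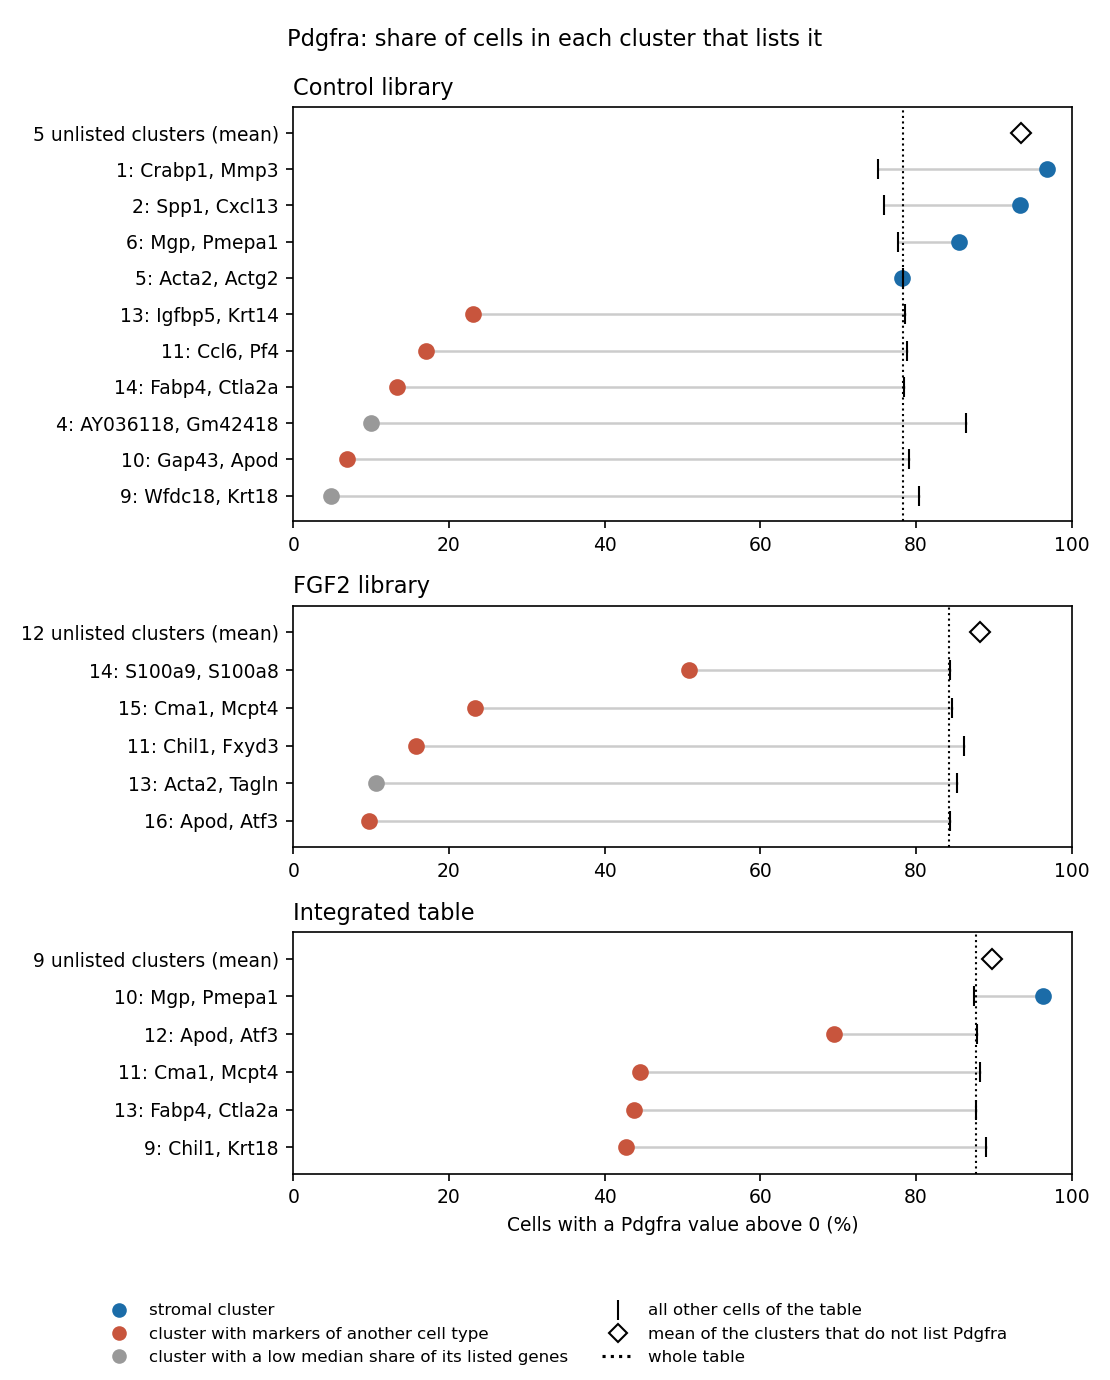
Percentage of cells with a Pdgfra value above 0 in each cluster that lists the gene (points), in the rest of its table (bars), in the unlisted clusters as a whole (diamonds) and in the whole table (dotted line), for the control library, the FGF2 library and the integrated table. Control clusters 1, 2, 5 and 6 lie between 78.2% and 96.8%, and the clusters with markers of other cell types in the 2 libraries lie between 4.9% and 50.8%; control cluster 9, grey for its low shares, also holds epithelial markers.

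In the control library Pdgfra varied between the stromal clusters. The highest listed share was in cluster 1, led by Crabp1, Mmp3 and Cpxm1, with 96.8% of its cells against 75.1% of all other cells in the authors' deposited table. There its level ratio was also highest, at 2.08-fold. The authors' deposited table gave cluster 2, led by Spp1, Cxcl13 and Saa3, a share of 93.3% against 75.9% and a level 1.40-fold that of the other cells. Crabp1 encodes a retinoic acid binding protein and Mmp3 a matrix protease, while Spp1 encodes osteopontin and Cxcl13 a chemokine. These clusters held 14.5% and 13.9% of the control cells. On the scale of the whole library, their relative levels were 1.80 and 1.33.

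A pair of control stromal clusters had a lower Pdgfra level with a share that was larger or nearly the same. Cluster 5, led by the contractile genes Acta2, Actg2 and Tagln, had Pdgfra in 78.2% of its cells against 78.3% of the others in the authors' deposited table. Its level ratio there was 0.42, a natural log ratio of -0.86. Pdgfra ranked 21 by size among the 207 genes listed as lower in cluster 5 in the authors' deposited table. Cluster 6, led by Mgp, Pmepa1 and Timp1, had the larger share, 85.5% against 77.7%, and a level ratio of 0.76 in the authors' deposited table. Mgp encodes an inhibitor of calcification and Timp1 an inhibitor of matrix proteases.

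Share and level thus ordered the control clusters differently. By relative level, cluster 5 (0.44) lay below the low-share cluster 4 (0.69) and the epithelial-marker cluster 9 (0.48), although Pdgfra was found in 78.2%, 10.0% and 4.9% of their cells in the authors' deposited table. A lower level with an equal or larger share was common in cluster 5, at 116 of the 207 genes listed as lower, and in cluster 6, at 63 of 152. The listed genes of cluster 5 had a median share of 90.7%, against 68.4% in the other cells, and those of cluster 4 had 10.9% against 84.8%. The part of depth per cell in the difference between share and level was not tested.

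The other 5 control clusters were not listed for Pdgfra. They were clusters 0 (led by Fbn2, Vegfd and Dlk1), 3 (Thbs1, Vegfd and Ptx3), the cycling clusters 7 and 8, and 12 (Ccl2, Mt1 and Hmox1). Together they held 39.0% of the control cells, a mean Pdgfra share of 93.5% and a mean relative level of 0.93. Cluster 3, which had 1 contractile marker among its 10 leading genes, was among the unlisted ones, unlike cluster 5, which had 4. A cluster is unlisted when its level ratio lies between 0.78 and 1.28 or the authors' p-value reaches 0.01, and these cases could not be told apart.

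In the FGF2 library no stromal cluster was listed for Pdgfra apart from cluster 13, one of those with low shares. The 12 unlisted clusters held 94.1% of the cells, with a mean share of 88.3% and a mean relative level of 1.04. They included the contractile cluster 4 (led by Acta2, Tagln and Thbs1), cluster 8 (Mgp, Pla1a and Ccl8), the cycling cluster 9 and cluster 2 (Igfbp3, Lpl and Clu). Cluster 13, led by Acta2, Tagln and Actb, had Pdgfra in 10.6% of its cells against 85.3% of the others in the authors' deposited table, with a level ratio of 0.40. It was counted as stromal only because it did not meet the rule for another cell type. Of its 10 listed mesenchymal markers 9 were lower, and their median share was 29.25%.

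The number of stromal clusters that listed Pdgfra, leaving out those of low shares, was 4 of 9 in the control and 0 of 11 in the FGF2 library. Of the 243 genes listed in at least 4 of those control clusters, 45 (18.5%) were listed in none of the 11 FGF2 clusters, and the median gene was listed in 2. Listing depends on cluster size and on how the authors divided each library, and the difference between the libraries was not tested.

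**Figure D2:**
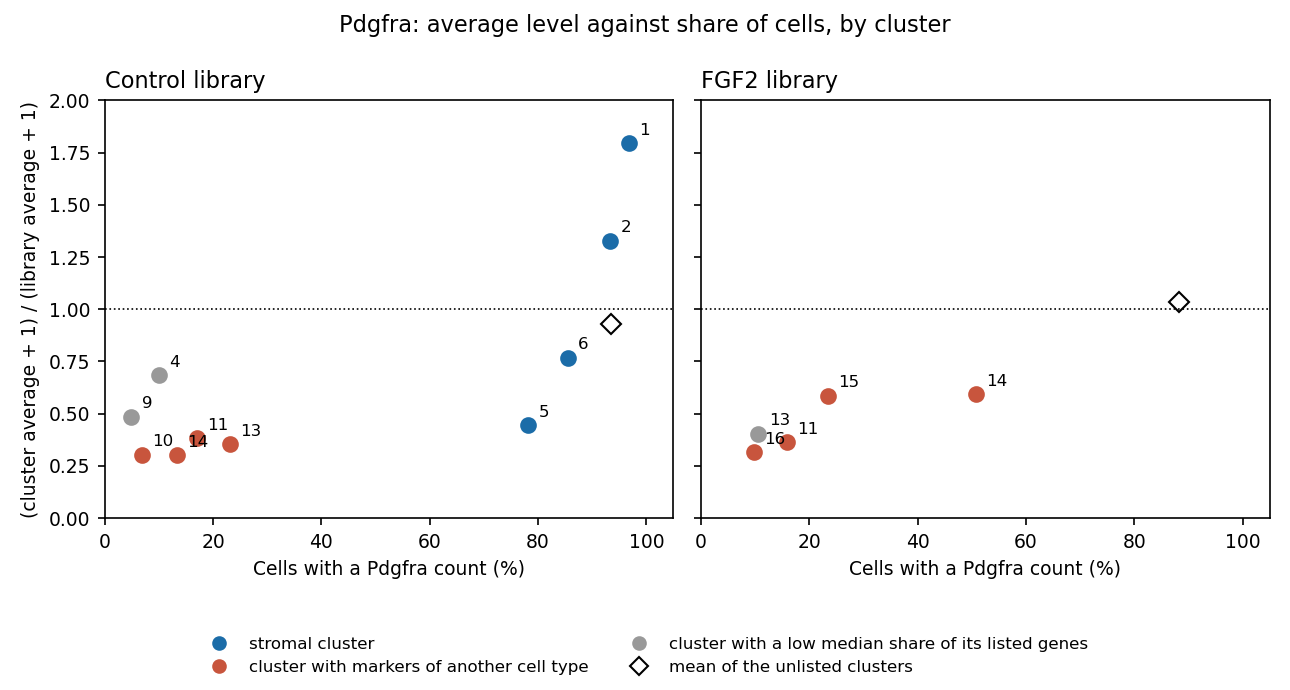
Relative Pdgfra level, the cluster average plus 1 over the library average plus 1, against the percentage of cells with a Pdgfra count, for each cluster that lists the gene (numbered points) and for the unlisted clusters together (diamonds). Control clusters 1, 2, 6 and 5 step down from 1.80 to 0.44 in level while their shares stay at or above 78.2%; in the FGF2 library the points are 4 clusters with other cell type markers and the low-share cluster 13.

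Clusters with markers of other cell types had smaller Pdgfra shares than their library as a whole. Among control clusters, the authors' deposited table gave 6.9% for Schwann or glial-like cells (cluster 10, led by Gap43 and Apod) and 13.3% for endothelial-like cells (cluster 14, Fabp4, Ctla2a and Cd93). Macrophage-like cells (cluster 11, Ccl6, Pf4 and Lyz2) had 17% in the authors' deposited table. The same deposited table of the authors gave 23.1% for the epithelial-like cluster 13 (Igfbp5, Krt14 and Itga6) and 4.9% for the epithelial-like cluster 9 (Wfdc18, Krt18 and Krt8). Their level ratios were 0.30, 0.30, 0.38, 0.35 and 0.48 in that order in the authors' deposited table. These shares are the background that the stromal shares stand against, at unknown depth.

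The FGF2 values for such cells ranged more widely. The authors' deposited table gave 9.7% for the Schwann or glial-like cluster 16 (led by Apod, Atf3 and Postn), 15.8% for the epithelial-like cluster 11 (Chil1, Fxyd3 and Krt18) and 23.4% for the mast cell-like cluster 15 (Cma1, Mcpt4 and Mcpt2). Cluster 14, with the neutrophil genes S100a9 and S100a8 in the lead, had the largest of these 4 shares, 50.8%, in the authors' deposited table. It listed 4 of 12 macrophage and 2 of 9 neutrophil markers as higher and was left unnamed.

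Stromal transcripts in general were more often found in cluster 14 than in the other non-stromal FGF2 clusters. The 9 mesenchymal markers listed for it, all as lower, had shares of 30.8 to 66.2% with a median of 50.8%, and Pdgfra, which is not in that list, was at 50.8%. The medians of the listed mesenchymal markers were 25.0% in cluster 15, 23.7% in cluster 11 and 19.4% in cluster 16. Among them Dcn, a matrix proteoglycan of fibroblasts, was at 66.2% in cluster 14 and 48.4% in cluster 15 in the authors' deposited table. The part of free RNA, or of droplets holding a stromal cell and a leukocyte, in the Pdgfra share of cluster 14 was not tested.

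The integrated table listed Pdgfra for 5 of 14 clusters, all at a lower level. What it compares are batch-integrated values, not transcript counts. Its recovered Pdgfra share of 87.6% lies above both library shares, so a value above 0 there is not the same as a detected count. Of 5 clusters with markers of other cell types, cluster 4, led by the haemoglobin genes Hba-a1, Hbb-bs and Hba-a2, was not listed for Pdgfra. The remaining 4 had shares of 42.8% (cluster 9, led by Chil1, Krt18 and Fxyd3), 44.6% (11, Cma1, Mcpt4 and Tpsb2), 69.5% (12, Apod, Atf3 and Postn) and 43.8% (13, Fabp4, Ctla2a and Gpihbp1) in the authors' deposited table.

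The fifth, integrated cluster 10, was led by Mgp, Pmepa1 and Slc20a1. It had Pdgfra in 96.3% of its cells against 87.5% of the others and a level ratio of 0.64 in the authors' deposited table. This is the same combination of larger share and lower level as in control cluster 6, which shares its first pair of leading genes. It was common there, at 91 of the 99 genes listed as lower in integrated cluster 10. The cells of the control library are also in the integrated table, so this is no independent repeat. Integrated cluster 2, led by Acta2, Tagln and Thbs1, was not listed for Pdgfra.

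Pdgfa, which encodes a ligand of the alpha receptor, was found in 65.5% of control and 62.6% of FGF2 cells. Control cluster 13, epithelial-like, had Pdgfa in 96.2% of its cells and Pdgfra in 23.1%, and the Schwann or glial-like cluster 10 had them in 94.8% and 6.9%, in the authors' deposited table. Their log ratios for Pdgfa were 1.54 and 1.32 in the authors' deposited table, against -1.04 and -1.20 for Pdgfra.

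By the sign of the log ratio, 4 of the 5 control clusters that listed both genes had opposite directions (clusters 6, 9, 10 and 13, or 3 of 4 without the low-share cluster 9), and cluster 11, the macrophage-like one, had both lower. By share, the directions were opposite in 2 of the 5, clusters 10 and 13. In the stromal cluster 6, Pdgfa was found in 88.9% of the cells with a log ratio of 0.46, beside -0.28 for Pdgfra, in the authors' deposited table. Of 4 such FGF2 clusters, the epithelial-like cluster 11 and the Schwann or glial-like cluster 16 had opposite log ratios, and clusters 14 and 15 had both genes lower. By share, cluster 16 alone of these 4 had opposite directions, as cluster 11 had Pdgfa in 56.7% of its cells against 62.8% of the others in the authors' deposited table. Pdgfa had log ratios of 0.68 and 0.98 in FGF2 clusters 11 and 16 in the authors' deposited table.

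The remaining ligand genes were sparse. Pdgfb, whose product binds both receptors, had a control share of 0.917% and was listed only for the endothelial-like cluster 14, at 40.0% of its cells against 0.8% in the authors' deposited table. Pdgfc, another ligand of the alpha receptor, had a control share of 22.8% and was listed only for the epithelial-like cluster 13, at 46.2% in the authors' deposited table. Neither was listed in the FGF2 library, and Pdgfd, a ligand of the beta receptor, was listed in neither library. An unlisted gene may still be expressed.

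**Figure D3:**
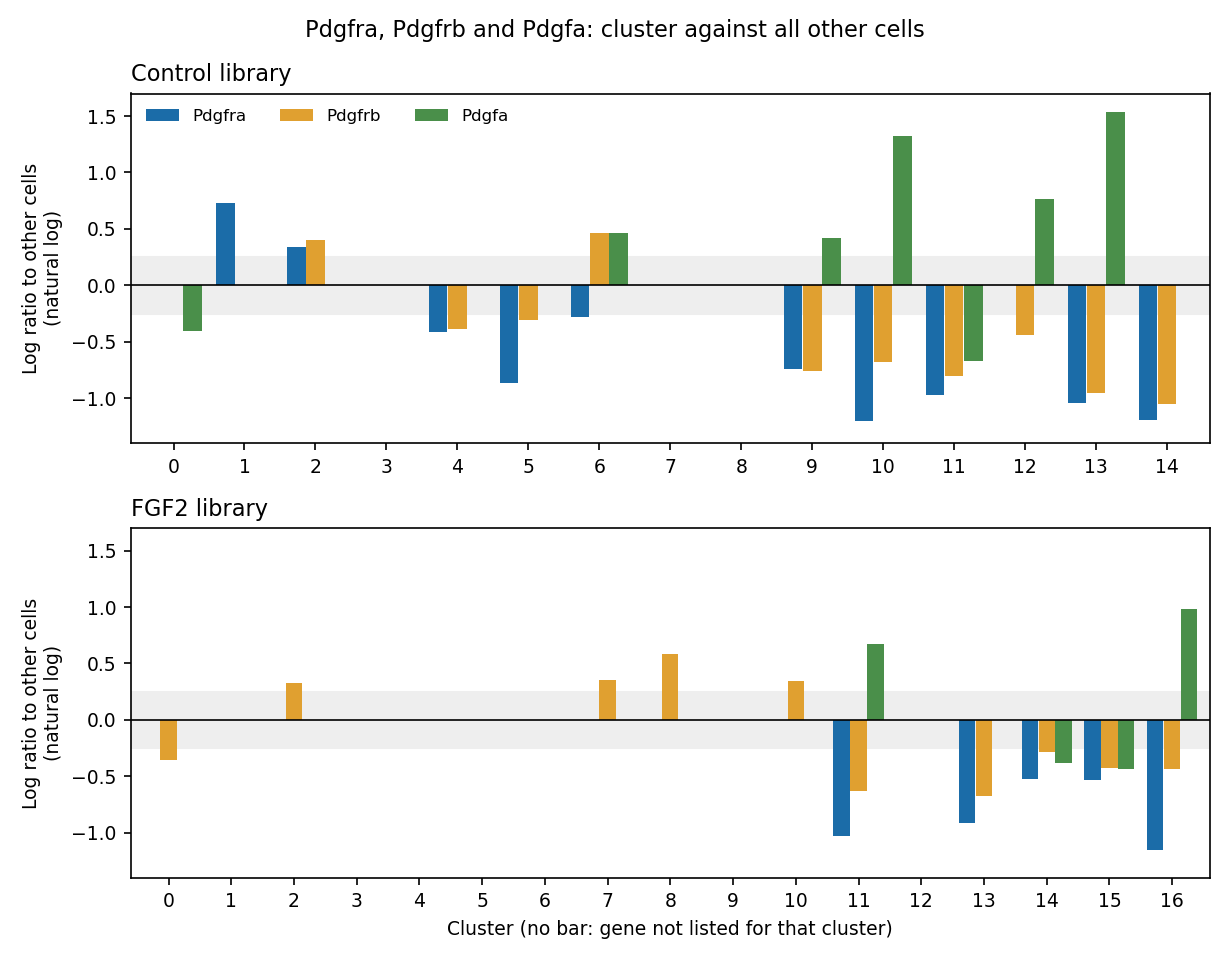
Natural log ratio of the cluster's average plus 1 to that of all other cells for Pdgfra, Pdgfrb and Pdgfa in each control and FGF2 cluster, as deposited by the authors; the grey band marks ratios too small to be listed. Control cluster 6 shows Pdgfra at -0.28 beside Pdgfrb and Pdgfa at 0.46, and in FGF2 clusters 0 to 10 only Pdgfrb has bars.

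The beta receptor gene Pdgfrb, typical of pericytes and also found in fibroblasts, had the larger share in the control library, also without the low-share clusters. It was found in 82.0% of control and 57.6% of FGF2 cells, a control share 1.42-fold higher. Without the low-share clusters the shares were 93.1% and 60.1%, which passes the size rule of 1.5-fold used here for a difference between libraries. Pdgfra by the same reckoning was at 89.0% and 85.3%, and within the rule in both cases.

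The receptors also differed in where they varied. In control cluster 6, where the Pdgfra level was lower, Pdgfrb was found in 98.9% of the cells with a log ratio of 0.46 in the authors' deposited table. By level, both receptors were higher in control cluster 2 and lower in contractile cluster 5. In cluster 5 Pdgfrb had a log ratio of -0.31 and Pdgfra -0.86 in the authors' deposited table. The share of Pdgfrb in cluster 5 was larger, 95.5% against 80.7% of the others, in the authors' deposited table. In the FGF2 library, Pdgfrb was listed in stromal clusters 0, 2, 7 and 8 and in the low-share clusters 10 and 13. Its shares there ranged from 43.9% in cluster 0 to 86.5% in cluster 8, leaving out clusters 10 and 13, in the authors' deposited table. Pdgfra was listed in none of these 4. Control cluster 10, Schwann or glial-like, had Pdgfrb in 41.4% and Pdgfra in 6.9% of its cells in the authors' deposited table.

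Among all 9 receptors and co-receptors of the list, 6 were measured in both libraries, of which 1 was at least 1.5-fold higher and 2 at least 1.5-fold lower in the FGF2 library. Of all 2323 genes compared, 7.58% were higher and 15.2% lower by this rule. Without the low-share clusters the lower count was 3, with Pdgfrb added. The median log2 ratio of the 6 was -0.22, against -0.08 for all genes. Pdgfrl, which encodes a receptor-like protein, was seen in 60.2% of control and 32.5% of FGF2 cells. Nrp1, a co-receptor for several growth factors, was found in 67.2% and 38.8%. Lrp1, an endocytic receptor that modulates PDGF receptor signalling, was found in 84.7% and 89.3%, and without the low-share clusters, where its order turned like that of Pdgfra, in 96.4% and 90.3%.

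Kit, a receptor of the same structural class, was found in 0.957% and 1.80% of the cells and was the higher gene of the 6. In the FGF2 library it was listed for the mast cell-like cluster 15, at 70.3% of its cells, and for cluster 14, at 26.2%, in the authors' deposited table. Csf1r and Kdr, receptors of macrophages and endothelium, were listed in the control library alone (1.86% and 0.957%), and Flt3 in neither.

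**Figure D4:**
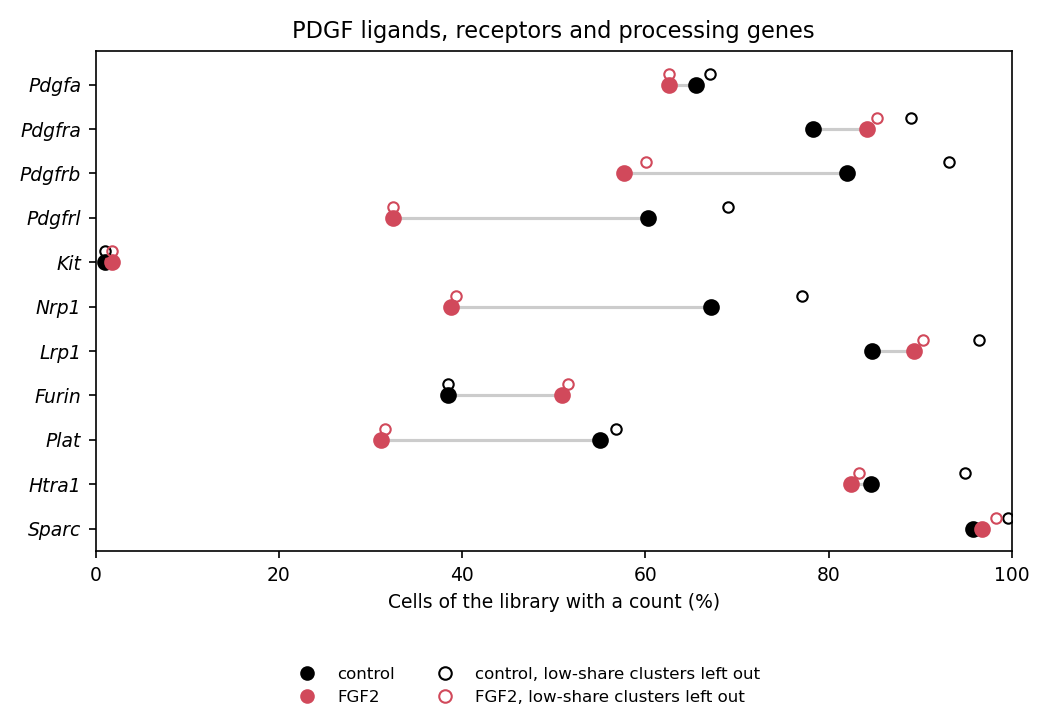
Percentage of cells with a count in the control and FGF2 libraries for the 11 PDGF ligand, receptor and ligand-processing genes measured in both (filled points), and after leaving out control clusters 4 and 9 and FGF2 clusters 10 and 13, with an unlisted one at the share of its library (open points). Pdgfra changes order, from 78.3% and 84.2% to 89.0% and 85.3%, as do Lrp1 and Sparc, and Pdgfrb, Pdgfrl, Nrp1 and Plat keep the larger share in the control.

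Of 8 genes for processing or binding PDGF ligands, 4 were measured in both libraries (median log2 ratio -0.01). By the size rule 0 of the 4 were higher and 1 lower, against 7.58% and 15.2% of all genes. The lower one was Plat, the tissue plasminogen activator that can activate PDGF-C, found in 55.1% of control and 31.2% of FGF2 cells. Furin, a protease that cleaves growth factor precursors, was found in 38.4% and 50.9%. Sparc, a matrix protein that binds PDGF, was found in 95.7% and 96.8%, and without the low-share clusters, where its order turned, in 99.6% and 98.3%. The secreted protease gene Htra1 was found in 84.7% and 82.5%. Plau, the urokinase gene, was listed in the FGF2 library alone (35.7%), and Pcsk5 in the control alone (10.8%).

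Signal transducers of the receptor were mostly unlisted or measured in 1 library. Of 18 genes, 5 were measured in both (median log2 ratio -0.18). By the size rule 0 of the 5 were higher and 1 lower, against 7.58% and 15.2% of all genes. Pik3r1, the regulatory subunit of the kinase that docks on the receptor, was found in 60.0% of control and 29.0% of FGF2 cells. Rasa1, a GTPase-activating protein of Ras, was found in 64.3% and 71.2%. The adaptor gene Shc1 (63.5% and 56.0%), Stat3 (76.7% and 61.5%) and Hras (73.6% and 66.6%) lay within the rule.

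Of 13 genes that dampen receptor signalling, 4 were measured in both libraries (median log2 ratio 0.14). By the size rule 1 of the 4 was higher and 1 lower, against 7.58% and 15.2% of all genes. Dusp6, a phosphatase of ERK, was found in 28.2% and 64.4% of the control and FGF2 cells. Spry1, which restrains growth factor receptor signalling, was found in 44.6% and 26.4%, and its relative Spry4 in 38.7% and 56.4%.

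Early response genes, which PDGF and many other stimuli induce in fibroblasts, had 14 of 18 members measured in both libraries. Of these, 5 were higher and 0 lower by the size rule, against 7.58% and 15.2% of all genes. The median log2 ratio was 0.36, and the counts were the same without the low-share clusters. Fosl1, an AP-1 transcription factor gene, was found in 16% of control and 64.0% of FGF2 cells. Ptgs2, the inducible cyclooxygenase, was found in 31.7% and 71.5%, Egr2, a zinc finger factor gene, in 14.2% and 24.7%, and the chemokine gene Ccl2 in 39.9% and 69.2%. Ccl7 was the fifth. At the other end, Egr1 (70.8% and 58.8%), Fos (60.9% and 51.3%), Ier2 (77.0% and 73.4%) and Klf4 (47.5% and 46.6%) lay within the rule. FGF2 induces many of these genes too, so the list is not particular to the PDGF receptor.

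Of 10 genes near Pdgfra on its chromosome, 2 were measured in both libraries. By the size rule 1 of them was higher and 0 lower, against 7.58% and 15.2% of all genes. The higher one was Kit, 376.7 kb away, with the shares given above. Tmem165, 985.7 kb away, was found in 72.8% of control and 60.2% of FGF2 cells. Kdr and Clock were listed in the control alone. The nearest listed neighbour, Chic2, which starts and ends within chr5:74997988-75044774 and lies 107.5 kb away, was measured in the FGF2 library alone, at 83.9% of the cells. Fip1l1, an mRNA processing gene 553.5 kb away, was at 80.2% there and also unlisted in the control. Gsx2, 74.4 kb away, was listed in neither library.

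The genes most like Pdgfra were sought among the 54 genes listed in at least 2 of every 3 clusters that list it, and in at least 5, in each library. Likeness was the Pearson r of the share over clusters, and the genes most alike were those with the highest smaller r of the 2 libraries. The leading 5 were Bicc1, Col6a3, Nrp2, Cdh11 and Serping1, with control r of 0.997, 0.99, 0.99, 0.97 and 0.98 over 9, 10, 7, 7 and 10 clusters. Their FGF2 r values were 0.99, 0.98, 0.97, 0.97 and 0.97 over 5 clusters. These were clusters 11, 14, 15 and 16, with markers of other cell types, and the low-share cluster 13. The FGF2 values therefore do not describe likeness among the other stromal clusters. Bicc1 encodes an RNA-binding protein, Col6a3 a chain of collagen VI, Nrp2 a growth factor co-receptor, Cdh11 a cadherin of mesenchymal cells and Serping1 the complement C1 inhibitor.

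These correlations describe clusters that share a library and include the low-share ones. The median smaller r over the 54 genes was 0.81. Without the low-share clusters, r of the leading 5 was 0.97 to 0.997 over 5 to 8 control clusters. In the FGF2 library it was 0.97 to 0.989 over 4 clusters, all with markers of other cell types. The control clusters included 10 and 13, with such markers, so a high r partly restates stromal against other clusters. For Cdh11 they were stromal cluster 1 and clusters 10, 11, 13 and 14, with such markers. Col6a3 was higher in stromal control cluster 6 (log ratio 0.39), where Pdgfra was lower (-0.28), in the authors' deposited table. By Spearman's rho 2 of the 5 genes, and by log ratios 3 of the 5, were among the leading 5. Bicc1 followed Pdgfra from 98.4% in control cluster 1 and 97.1% in cluster 2 to 12.1% in cluster 10 and 5.6% in cluster 9 in the authors' deposited table. Like Pdgfra, Serping1 was higher in control clusters 1 and 2 and lower in 5 and 6, with log ratios of 0.51, 0.70, -0.85 and -0.47 in the authors' deposited table.

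The genes least alike were taken as the 5 with the lowest larger r of the 2 libraries, Cryab, Hspb1, Fxyd1, H19 and S100a6. By the smaller r, Cavin2 and Ddah1 would take the places of H19 and S100a6. Without the low-share clusters, r in the control and FGF2 libraries was 0.65 and 0.86 for S100a6 and 0.54 and 0.53 for H19. For Hspb1 it was 0.24 and 0.09, and for Fxyd1 0.22 and -0.31. Least alike is thus a rank among the 54 genes, and S100a6 and H19 are not opposite to Pdgfra. Cryab, a small heat shock protein gene, had an r of 0.19 over 8 control clusters and -0.55 over 5 FGF2 clusters, or 0.098 over 7 and -0.47 over 4 without the low-share clusters. The authors' deposited table gave it in 94.8% of control cluster 10, the Schwann or glial-like one, and 39.2% of cluster 1, where Pdgfra was found in 6.9% and 96.8%. In the FGF2 library it was found in 96.8% of the Schwann or glial-like cells in the authors' deposited table.

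**Figure D5:**
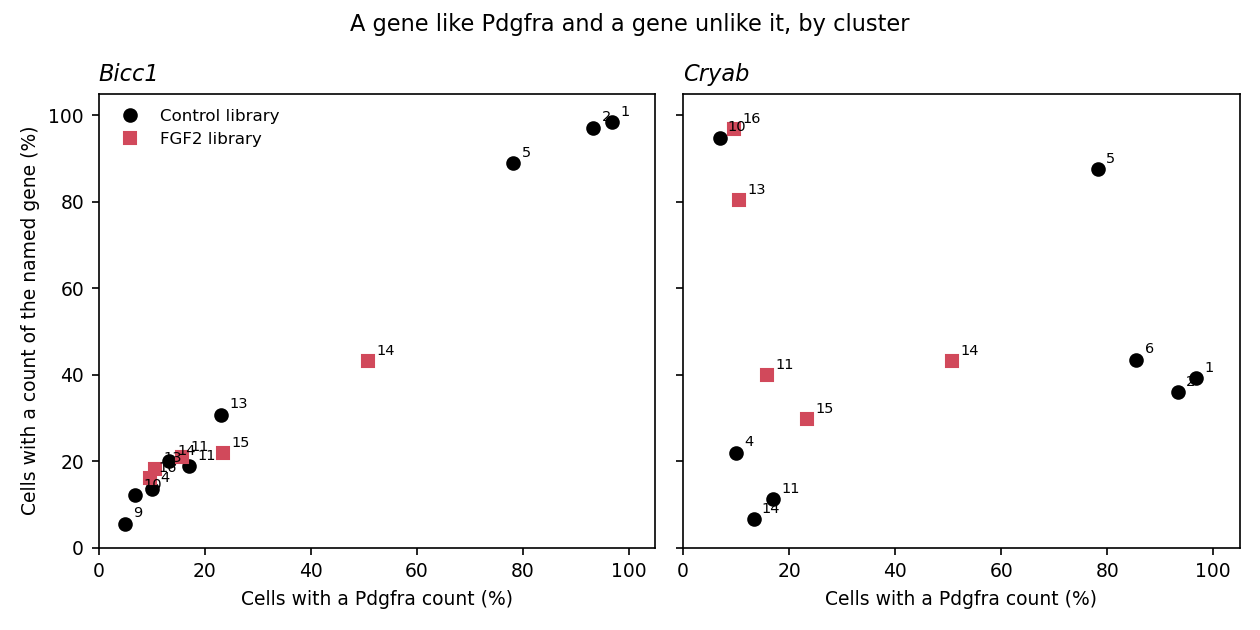
Percentage of cells with a count of Bicc1 (left) or Cryab (right) against the percentage with a Pdgfra count, for each cluster that lists both genes, numbered by cluster, in the control and FGF2 libraries. Bicc1 lies along a rising line from 5.6% to 98.4%, while Cryab is at 94.8% and 96.8% in the Schwann or glial-like clusters, control 10 and FGF2 16, where Pdgfra is at 6.9% and 9.7%.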

How the data were processed

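Per the submitters' processing notes, reads were processed with Cell Ranger 4.0 on mm10. How cells were filtered, doublets treated, values normalized and integrated, clusters made and tests run is not given in the sources used here. In all 3 deposited tables, per the file headers, an entry holds the fraction of a cluster's cells above 0 (printed as a percent), the same fraction in the other cells, a log ratio and p-values of the authors. The ratio was read as a natural log: on genes with no positive cell in several clusters, the median coefficient of variation of the implied average was 0.00169% (8 control genes) against 0.0488% for base 2. The authors' p-values treat cells as replicates and are not printed. A word in the name of each library's table matched it to a sample description.

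All listed entries had a log ratio of at least 0.25 in size, a p-value under 0.01 and a larger share of at least 25.1%. Each cluster's part of all cells was recovered by least squares from genes listed in 2 or more clusters (2077 control, 1490 FGF2), since the share over all cells must come out the same from every cluster. The procedure was tested on simulated tables of the same shape. Python 3.11.15, numpy 2.4.6 and pandas 2.3.3 were used.

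The genes named were Pdgfra, all listed PDGF ligands, receptors and processing genes, the 4 largest and 4 smallest ratios of the other lists, the 5 genes most and 5 least like Pdgfra, and each cluster's 3 leading genes. The gene and the lists were chosen with earlier results of these data known. Alternatives changed the fit of the cluster parts, the low-share clusters, the scale and the measure of likeness. A gene called different between the libraries had a share at least 1.5-fold apart. Some named genes are not reported here.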

Additional observations from a re-analysis of the deposited data

How the results depend on the processing

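The Pdgfra share of each table (78.3, 84.2 and 87.6%) moved by less than its counting error when the cluster parts came from genes in at least 4 clusters, were rescaled to add up, or when a median replaced the mean, and so did both differences between the libraries under the first pair. Leaving out control clusters 4 and 9 and FGF2 clusters 10 and 13 turned the difference of FGF2 minus control from 5.91 to -3.88 points over all cells and from 4.58 to -3.45 points over stromal cells, with the unlisted cluster 10 at the mean of the unlisted clusters. With cluster 10 at 0 these were -0.62 and -0.034 points. The turn follows from the shares of the clusters left out, which include an epithelial-like cluster of the control library but none of the FGF2 library. On the scale of minus the natural log of the share of cells without Pdgfra, the differences were 0.32 over all cells and 0.30 over stromal cells. The gap between the highest and lowest listed stromal control cluster was 86.8 points, 18.6 points without cluster 4, 86.8 points without cycling clusters, and 1.35 on the relative level scale. The same gap had no value in the FGF2 library. There cluster 13, counted as stromal only for lack of another cell type call, was the 1 such cluster listed. Chosen after seeing the data, leaving out the same 4 clusters with unlisted ones at the share of their library gave 177 genes higher and 380 lower, against 176 and 354, and moved the median log2 ratio from -0.08 to -0.12. The log2 ratio of Pdgfrb moved from -0.51 to -0.63 under that setting. No paired analysis was possible because each group is 1 library.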

Other observations

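Pdgfra was 1 of 48 genes listed in all of control clusters 1, 2, 5 and 6, and 18 of these had its signs, higher in clusters 1 and 2 and lower in 5 and 6. Another 16 were higher in cluster 5 alone, 6 had all signs opposite, and 6 were lower in cluster 5 alone. The 18 were picked out after their values were seen. They included Apoe and Lpl, genes of lipid transport and uptake, with log ratios of -1.23 and -1.68 in cluster 5, the imprinted genes Peg3 and Peg10, and the complement genes C1s1 and Serping1, all in the authors' deposited table. Igfbp3, which encodes a binding protein of insulin-like growth factors, had 0.77, 0.78, -1.34 and -0.52 in clusters 1, 2, 5 and 6 in the authors' deposited table.

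In the contractile cluster 4 of the FGF2 library, 5 of the 18 were listed, all as lower. Of the other 30 of the 48 genes, 22 were listed there, 5 as lower and 17 as higher, and of all 360 genes listed there 163 were lower. The 18 were picked as lower in the contractile control cluster 5, where most of the other 30 were higher. The contrast in FGF2 cluster 4 is therefore no separate support for the pattern. Igfbp3, Serping1, Apoe, Cst3 and Peg10 had log ratios of -0.94, -0.68, -0.58, -0.53 and -0.39 there in the authors' deposited table, while Pdgfra was not listed. Pdgfra, Phip and Plxdc2 were the 3 of the 18 listed in no stromal FGF2 cluster, leaving out clusters 10 and 13. That is near the share over all genes. Of the 243 genes listed in at least 4 stromal control clusters without low shares, 45 (18.5%) were listed in none of those 11 FGF2 clusters.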
